A study of Homo sapiens with 12 samples.

Results

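Exon and intron counts were compared gene by gene within control cultures that had received only the solvent, to ask which RNAs these undrugged cells hold and how their exon and intron parts relate. The material was 3 of the 12 RNA-seq samples of the study, taken by their labels (TYK-Nu, DMSO, 24 h, replicates 1 to 3), and 8109 of the 17508 genes in the table entered the comparison because each had at least 10 exon and 10 intron counts in every one of the 3 libraries. The labels describe TYK-Nu as a cell line from a high grade serous adenocarcinoma of the ovary, and the study set cisplatin against DMSO at 24 and 72 h. Poly(A) RNA was selected, made into directional libraries and sequenced in pairs, and the authors counted exons and introns apart, with an entry for both in most genes. The sources say that cells were grown in triplicate and, of experiments in general, that they were repeated independently, but not whether the 3 libraries are such repeats or cultures of 1 experiment, so every SD and p-value given here measures only the spread between these samples, which may be technical.

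RNA polymerase II copies exons and introns alike, and the spliceosome cuts the introns out while the transcript is still being made or soon after. Introns are then degraded within the nucleus, whereas spliced messenger RNA leaves for the cytoplasm and can last for hours or days, so poly(A) RNA holds far more exon than intron. Fragments on introns can come from transcripts that are not yet spliced, from introns that are retained, or from other RNAs that are transcribed inside the intron.

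The marker genes of serous ovarian carcinoma went against the label. Of the 24 genes of that list, 21 were in the table, 10 had 0 exon and 0 intron counts in all 3 libraries, beside 24.8% of all genes of the table, and 4 had a mean exon level of at least 1 FPKM (here, exon counts per kb of annotated exon and per 1000000 exon counts of the library). PAX8, the transcription factor that marks this lineage, had 1, 0 and 0 exon counts, and the genes at 0 included FOLR1 (folate receptor alpha), SOX17, CDH6, WFDC2 (the antigen HE4), ESR1, PGR and CDKN2A. The epithelial adhesion gene EPCAM had 5, 11 and 4 exon counts and KRT7 had 0, 2 and 1. WT1 was present at a low level (83, 120 and 41 exon counts, 0.390 ± 0.120 FPKM, SD, n = 3). The list's exon counts summed to 9483, 10366 and 6382, of which KRT18, a keratin of simple epithelia, gave 4722, 4973 and 3049, and MECOM, a zinc finger transcription factor, gave 3023, 3568 and 2368. Epithelial and serous markers were therefore near 0 apart from KRT18, MECOM, KRT8 and BCAM.

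Several genes of endothelium were abundant in the same libraries. All 10 genes of that list were in the table, 6 had a level of at least 1 FPKM, beside 48.3% of all genes, and the exon counts of the list summed to 161457, 174576 and 112377, which was 0.608% ± 0.00592 of all exon counts (SD, n = 3). The most abundant was PECAM1, an adhesion molecule of endothelial junctions and platelets, with 62201, 70933 and 46230 exon counts and a level of 315 ± 7.89 FPKM. TIE1, an orphan receptor tyrosine kinase of endothelium, stood at 264 ± 13.2, CDH5, the cadherin of endothelial junctions, at 167 ± 5.13, ESAM at 154 ± 3.21, the VEGF receptor KDR at 41.2 ± 1.91 and the angiopoietin receptor TEK at 31.2 ± 0.599 on the same scale. Other genes of the list were low, since VWF had 13, 19 and 0 exon counts, EMCN had 0, 0 and 1 and ERG had 148, 128 and 100, while CLDN5 had no exon entry and so no exon value. Fewer cells of a type and less RNA per cell cannot be told apart in such bulk samples. Whether other cells, or a line other than the labelled one, gave these values was not tested, and the 3 samples are called the DMSO libraries here, with no cell type name of their own.

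**Figure D1:**
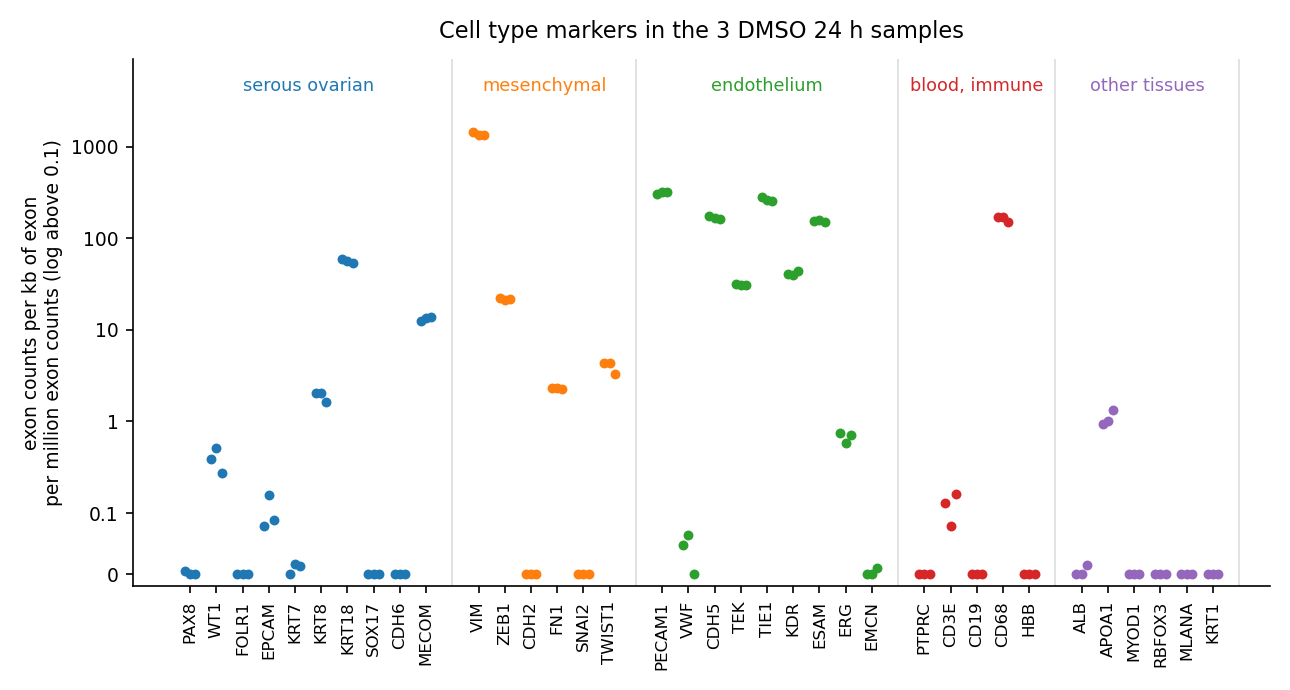
Exon level of marker genes in the 3 DMSO 24 h samples, 1 point per sample, in FPKM (vertical axis, logarithmic above 0.1 and linear below it, with 0 shown). Of the serous ovarian markers drawn, those other than KRT18, MECOM and KRT8 lie below 1, while PECAM1, TIE1, CDH5 and ESAM lie above 100 in all 3 samples, as do VIM and CD68.

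Mesenchymal genes differed among themselves. VIM, the intermediate filament protein vimentin, had 193526, 200274 and 128360 exon counts (1365 ± 50.2 FPKM), the transcription factor ZEB1 had 4990, 5343 and 3512, and the cell surface glycoprotein THY1 had 10280, 11240 and 6358. The N-cadherin gene CDH2 and the transcription factor SNAI2 were at 0, as were MMP2 and LUM, and 4 of the 20 genes of the list had an exon entry and were at 0 in all 3 libraries, a share near that of the whole table. VIM held most of the list's sum of 210276, 218516 and 139238 exon counts. Of the blood and immune markers, 17 of 20 were in the table and 10 were at 0, among them PTPRC (the leukocyte antigen CD45), HBB, CD3D, CD4 and CD8A. The exception was CD68, a lysosomal membrane protein of macrophages that other cells also make, with 9723, 10638 and 5975 of the list's 9748, 10660 and 5987 exon counts. Markers of liver, muscle, neuron and skin summed to 827, 932 and 607 exon counts, with 14 of the 26 in the table at 0, MYOD1, KRT1 and KRT5 among them, and KRT10 the most abundant at 583, 642 and 454.

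The 3 libraries held 26272230, 28863204 and 18610268 exon counts and 1834652, 1928935 and 1330084 intron counts. Introns took 6.53% (95% Wilson interval 6.52 to 6.54), 6.26% (6.26 to 6.27) and 6.67% (6.66 to 6.68) of the counts, a mean of 6.49% ± 0.206 (SD, n = 3). Intervals and floors cover counting error only, because the libraries carried no molecular identifiers. The genes in the comparison held 95.5% ± 0.0558 of exon counts and 90.7% ± 0.192 of intron counts (SD, n = 3). The rest included 423 genes with no exon entry, which held 4.81% ± 0.0895 of intron counts, and 913 genes with no intron entry, which held 0.985% ± 0.0325 of exon counts and of which 711 have no intron in the annotation used here.

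The most abundant exon RNAs by count included those of translation (EEF1A1, EEF2, RPS2), the cytoskeleton (VIM, ACTB) and protein folding (HSP90AB1, HSPA8). The 10 genes with the largest mean share of exon counts were EEF1A1, then VIM and ACTB within their SDs of each other, GAPDH, YBX1, EEF2, TGM2, HSP90AB1, RPS2 and HSPA8, and together the 10 top genes of each library held 4.67% ± 0.148 of exon counts (SD, n = 3). EEF1A1 (ENSG00000156508, chr6:73489308-73525587, minus strand), the factor that brings aminoacyl-tRNA to the ribosome, had 204668, 233166 and 142541 exon counts, or 0.784% ± 0.0214 of all exon counts. ACTB, which encodes beta-actin, had 198361, 198816 and 125761, and the glycolytic enzyme GAPDH had 125002, 139659 and 79267. TGM2, a transglutaminase that cross-links proteins, had 94291, 99561 and 59348. The order differed per kb of exon. On that scale TMSB10, a small actin-binding thymosin, led with 5548 ± 194 FPKM, followed by GAPDH (1928 ± 131), ACTB (1604 ± 96.5), the calcium-binding protein S100A6 (1434 ± 112), VIM, RPS2 (1315 ± 39.9), PROCR (1262 ± 81.1), FTL (1181 ± 46.5), TMSB4X (1141 ± 19.7) and YBX1 (1092 ± 13.3). PROCR encodes the endothelial receptor of protein C and FTL the light chain of ferritin, the iron store. Among these, neighbours such as ACTB and S100A6, or RPS2 and PROCR, lay within their SDs of each other, while TMSB10 stood clear of all others. This order depends on the length used, the union of the exons of all annotated transcripts. Over the genes compared, the median of that length was 5677.5 bases, against 3316.5 for the canonical transcript. The order by canonical length is not given here.

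Intron counts were more concentrated, and ribosomal protein genes led them. The top 100 genes of a library held 26.9% ± 0.979 of intron counts against 19.5% ± 0.284 of exon counts (SD, n = 3), and the top 10 held 11.2% ± 0.879 of intron counts. RPLP0 (ENSG00000089157, chr12:120196699-120201235, minus strand), a protein of the ribosomal stalk, had 35619, 40803 and 23295 intron counts, 1.94% ± 0.182 of all intron counts. RPL13 followed with 29209, 31310 and 17473, RPL10 with 25287, 29327 and 17025, RPS10 with 23050, 25682 and 14485, RPL36A with 17165, 19193 and 11293, and RPL15 with 14805, 17223 and 10787. All 6 of these genes encode proteins of the cytosolic ribosome. The other 4 of the top 10 were NME1-NME2, a readthrough gene that spans the kinase genes NME1 and NME2, MATR3 (ENSG00000015479), a nuclear matrix protein, CHCHD3, a mitochondrial inner membrane protein, and TPT1, the translationally controlled tumour protein. NME1-NME2 had 25123, 28014 and 16770 intron counts and MATR3 had 12831, 15036 and 10316, and neither had an exon entry. A second gene with the symbol MATR3 (ENSG00000280987) shares exon bases with the first, so their counts cannot be told apart here.

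The territory counted as intron limits what these values mean. In the annotation used here, RPL13 has 0 bases that are intron in every transcript, RPLP0 has 549 and RPL15 has 643, although the deposited intron counts of RPL13 exceed its exon counts of 4264, 4262 and 2604. Of the genes compared, 46 have 0 such bases. The authors cite the CRIES procedure for this counting, and how it draws exon and intron territories for genes with many transcripts is not described in the sources used here.

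Many ribosomal protein and elongation factor transcripts open with a run of pyrimidines at the cap, the TOP motif, through which their translation is controlled together. The 30 bases around the transcription start (15 before and 15 after, from RefSeq, GRCh38.p14, coding strand) are shown for EEF1A1, which led the exon counts, and for 5 ribosomal protein genes that led the intron counts. They were searched for CTTTC and CTTTT, which share their first 4 letters, and the first match of a window is in capitals. The windows are chr6:73521018-73521047 (minus) for EEF1A1, chr12:120201097-120201126 (minus) for RPLP0, chr16:89560667-89560696 (plus) for RPL13, chrX:154398362-154398391 (plus) for RPL10, chr6:34426055-34426084 (minus) for RPS10 and chrX:101390996-101391025 (plus) for RPL36A.
EEF1A1: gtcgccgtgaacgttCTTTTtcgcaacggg
RPLP0: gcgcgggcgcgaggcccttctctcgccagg
RPL13: ttgcggggccgcttcCTTTCcgctcggctg
RPL10: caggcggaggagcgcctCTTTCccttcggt
RPS10: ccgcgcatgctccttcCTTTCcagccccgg
RPL36A: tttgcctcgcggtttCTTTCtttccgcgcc
RPL13 and RPL10 each have 3 start sites in that table, of which 1 and 2 hold a match, and the window shown for each is the first that does. Of the 65 cytosolic ribosomal protein genes with a window, 45 (69.2%) held a match on the coding strand, as did 11 of 37 translation factors and 12 of the 41 most abundant exon genes with a window. The share was 9.71% over the 27305 genes of that table, 9.99% over the genes compared, and 10.9% for the genes with a high ratio as for those with a low ratio. With both strands searched, 47 ribosomal protein genes (72.3%) and 15.7% of all genes held a match. A match is a string of letters in a window and was not tested as a site.

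The ratio of exon to intron counts spanned more than 100-fold between genes within each library. Its median over the 8109 genes was 13.9, 15.0 and 13.2, a mean of 14.1 ± 0.901 (SD, n = 3). The 5th percentile was 0.892 ± 0.0533 and the 95th was 118 ± 7.59, and their fold was 126, 137 and 135 in the 3 libraries (132 ± 5.73). In 448, 435 and 488 genes the introns held more counts than the exons. Each gene's ratio was set against that of the median gene and tested against a 4-fold bound with edgeR (glmTreat, Benjamini-Hochberg adjusted p under 0.05, library as a block). By that test 952 genes (11.7%) had a ratio more than 4-fold above the median gene and are called high, and 1311 (16.2%) had one more than 4-fold below it and are called low. In 930 of the high genes and 1279 of the low genes, all 3 libraries lay past the bound on their own. High genes held 38.1% ± 0.270 of exon counts and 4.47% ± 0.173 of intron counts, and low genes held 3.01% ± 0.0583 and 36.8% ± 0.757 (SD, n = 3). With a 2-fold bound the numbers were 2244 and 2414, with a minimum of 50 counts 552 and 661, without genes that overlap others on the same strand 573 and 794, and per kb of exon and intron 1593 and 1897. The span was 210.3 with a minimum of 1 count, 86.6 with one of 50 and 657 per length.

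**Figure D2:**
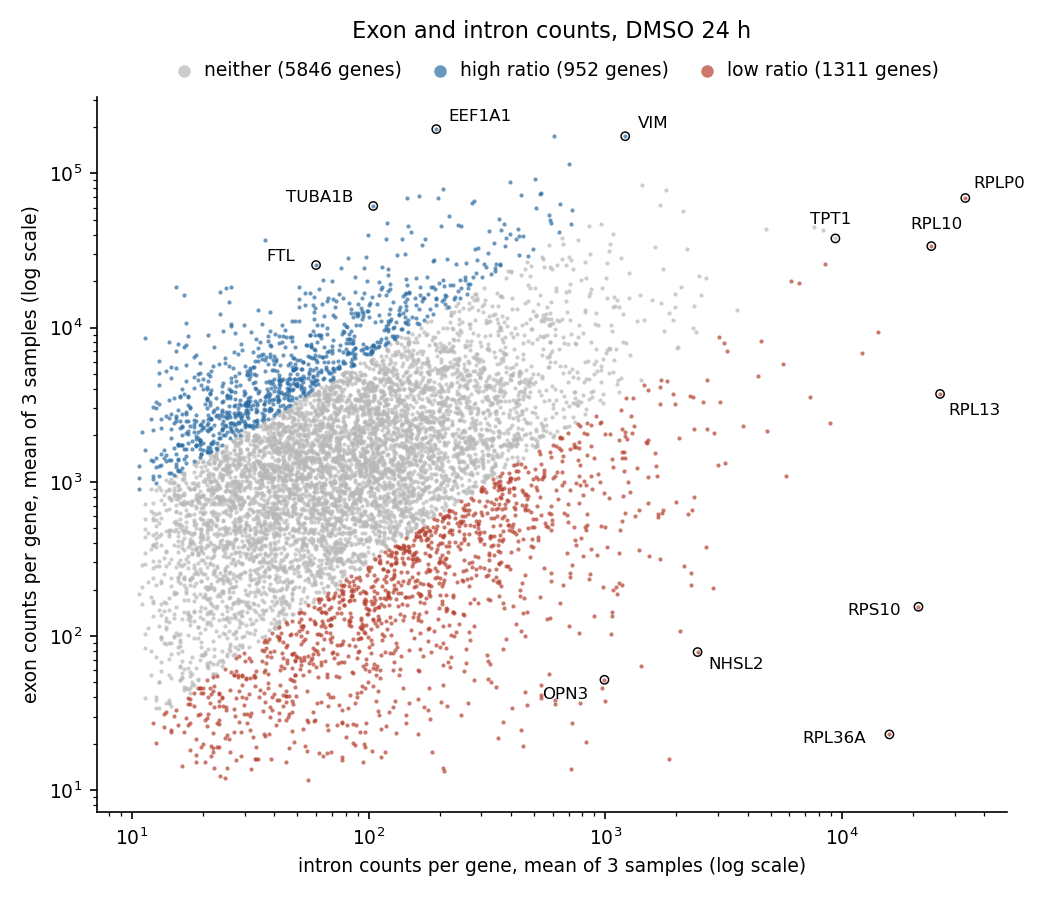
Exon counts (vertical axis) against intron counts (horizontal axis) of the 8109 genes, each the mean of the 3 DMSO 24 h samples on logarithmic axes, with 1 point per gene. Blue points are the 952 genes with a high ratio, red the 1311 with a low ratio and grey the others, and labelled genes are circled. Ribosomal protein genes such as RPLP0 and RPL10 lie at the right edge with many exon counts as well, while RPS10 and RPL36A lie there with few.

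Among high genes with a mean of at least 50 intron counts, a minimum that admits only genes with many exon counts, EEF1A1 led. It had 176, 249 and 155 intron counts against its 204668, 233166 and 142541 exon counts, a ratio of 1006 ± 136 (SD, n = 3) and 6.15 on the log2 scale above the median gene (standard error 0.0677, adjusted p = 3.5e-26, edgeR). TUBA1B, an alpha-tubulin, followed at 585 ± 136, the beta-tubulin gene TUBB at 482 ± 34.8, the chaperone gene HSP90AA1 at 434 ± 11.6 and FTL at 420 ± 28.5. TUBA1B has 42 bases of intron in the annotation, and per kb of intron its direction turned, to -3.28 on the log2 scale against the median gene, whereas EEF1A1, TUBB, HSP90AA1 and FTL were high per length as well. Below 50 intron counts, the endoplasmic reticulum chaperone HSPA5 reached 1003 ± 104 with 38, 40 and 32 intron counts, and MTPN, chosen after its values were seen, had the highest mean ratio of all, 1326 ± 680.0, from 20, 10 and 16 intron counts.

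The genes named here for the lowest ratios overlap others. RPS10 (ENSG00000124614, chr6:34417454-34426069, minus strand) had 229, 137 and 98 exon counts beside its 23050, 25682 and 14485 intron counts, a ratio 1938-fold below the median gene. It shares 730 bases of exon with the readthrough gene RPS10-NUDT3. RPL36A was lower still, with 24, 23 and 22 exon counts, and shares exon bases with RPL36A-HNRNPH2. The next lowest with a mean of at least 50 exon counts were NHSL2 with 78, 91 and 67 exon and 2574, 2664 and 2131 intron counts, LBHD1, PCDHGA4 of the clustered protocadherins, and OPN3, an opsin, which were between 268-fold and 439-fold below the median gene. NHSL2 shares 502 bases of exon with another gene. The gene CHML lies within OPN3 on the same strand, C11orf98 within LBHD1, and 3 other protocadherin genes within PCDHGA4, so fragments of these neighbours cannot be told apart from intron fragments. Over all low genes, 105 (8.01%) had another coding gene in their introns on the same strand against 23 high genes (2.42%) and 3.97% of all genes compared, and 344 (26.2%) shared exon bases with another gene against 158 high genes (16.6%) and 18.3% of all genes compared. With noncoding genes in introns counted as well, some same-strand overlap was found in 42.7% of low, 33.4% of high and 36.1% of all genes compared, so most low genes had none. A gene or an RNA on the other strand lay in the introns of 49.4% of all genes compared, and the strand setting of the counting is not given in the sources used here.

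Median ratios differed between lists of genes grouped by function. Across 10 groups by exon counts the median ratio rose from 1.42 to 64.1. No list was set against genes of similar exon counts, so how far its median follows abundance was not tested. Of 41 lists, 29 had at least 10 genes in the comparison, and in 24 of the 29 the median ratio lay above that of all genes. The fold between the highest and the lowest of these list medians was 20.4. Per kb of exon and intron, 18 of the list medians lay above it, so the order below is one of counts unless length is named. By count 11.7% of all genes compared were high and 16.2% low, the shares to set beside the counts of each list. Per length, 19.8% of all genes were high and 23.5% low. Shares of counts given for a list are summed over all its members in the table, including those outside the comparison. Members named beyond a list's most abundant gene and those with its highest and lowest ratio were chosen after their values were seen.

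Protein folding and glycolysis had the highest median ratios. Of 29 chaperone genes, 26 were high and 1 low, against 11.7% and 16.2% of all genes, with a median ratio of 113 ± 7.54 (SD, n = 3), and of the 28 with a value per length 15 were high and 1 low. HSP90AB1, the constitutive cytosolic chaperone, had 82143, 94878 and 61460 exon and 233, 221 and 165 intron counts. The exception was HSPE1, the mitochondrial co-chaperonin, with 2169, 2769 and 1968 exon and 4094, 4398 and 2969 intron counts, which shares exon bases with the readthrough gene HSPE1-MOB4. Of 15 glycolysis genes, 8 were high and 1 low, with a median of 106 ± 8.88. LDHB and LDHA, the 2 subunits of lactate dehydrogenase, lay at opposite ends with ratios of 262 ± 77.4 and 1.69 ± 0.0383. Of 34 cytoskeleton genes, 19 were high and 1 low (median 70.5 ± 2.39), the low one being KRT8 with 372, 401 and 207 exon and 266, 354 and 246 intron counts. Both these lists kept a median above that of all genes per length.

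Machines of gene expression and protein turnover also lay above all genes. RNA polymerase II subunits had a median ratio of 68.1 ± 9.37 (6 of 11 high, 1 low), within the SDs of the cytoskeleton list but 30.1 ± 5.33 in their 7 genes without same-strand overlap. Proteasome subunits had 61.6 ± 5.87 (15 of 29 high, 0 low) and translation factors 55.4 ± 3.98 (18 of 46 high, 3 low). Core spliceosome snRNP genes had 52.8 ± 9.66 (15 of 37 high, 5 low) and aminoacyl-tRNA synthetases 49.5 ± 2.73 (7 of 20 high, 0 low). The synthetases stood at 74.9 ± 7.75 in their 14 genes without same-strand overlap, the highest of these 5 lists on that basis. In the RNA polymerase II list, POLR2L had a ratio of 357 ± 109 and POLR2H one of 0.948 ± 0.00746. The proteasome's highest was the core subunit PSMB2 (316 ± 107), and its lowest, PSMA1, was 4.10 ± 0.264. Low translation factors were EIF3J, EIF4E2 and EIF4A2. Low snRNP genes were SNRPA1, SNRPN, SF3B1, TXNL4A and U2AF1, the last of these, which recognises the end of the intron, with 14, 50 and 11 exon counts. All 5 of these lists also lay above the median gene per length.

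Cytosolic ribosomal protein genes had a median above all genes by count and not by length. They took 6.74% ± 0.244 of exon counts and 9.70% ± 0.683 of intron counts (SD, n = 3), but 6 genes (RPLP0, RPL13, RPL10, RPS10, RPL36A and RPL15) held 7.83% ± 0.696 of the intron counts, and without them, a split made after seeing the data, the direction turned to 6.27% ± 0.224 of exon and 1.87% ± 0.0547 of intron counts. The median ratio of the 80 genes was 60.2 ± 7.40, with 39 high and 8 low, but per kb of exon and intron the median lay at -0.28 on the log2 scale against the median gene, with 7 of 75 high and 21 low. The highest by count was RPL7 (48155, 57060 and 37013 exon and 111, 153 and 95 intron counts). The low ones were RPL36A, RPS10, RPS16, RPL13, RPL15, RPL10, RPLP0 and RPS23, of which RPS16 had 27, 54 and 49 exon and 505, 512 and 354 intron counts. Ribosomal protein genes have many processed pseudogenes, between which fragments could be split, and that sharing was not tested. Mitochondrial ribosomal proteins (34.7 ± 4.81, 13 of 61 high, 4 low) and nuclear subunits of oxidative phosphorylation (34.5 ± 2.77, 15 of 62 high, 4 low) had medians closer to that of all genes, and lay at 0.12 and 0.58 per length. The low genes were MRPL35, MRPL43, MRPL55 and MRPS6 in the first and NDUFB10, NDUFS8, NDUFV3 and ATP5MF in the second.

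**Figure D3:**
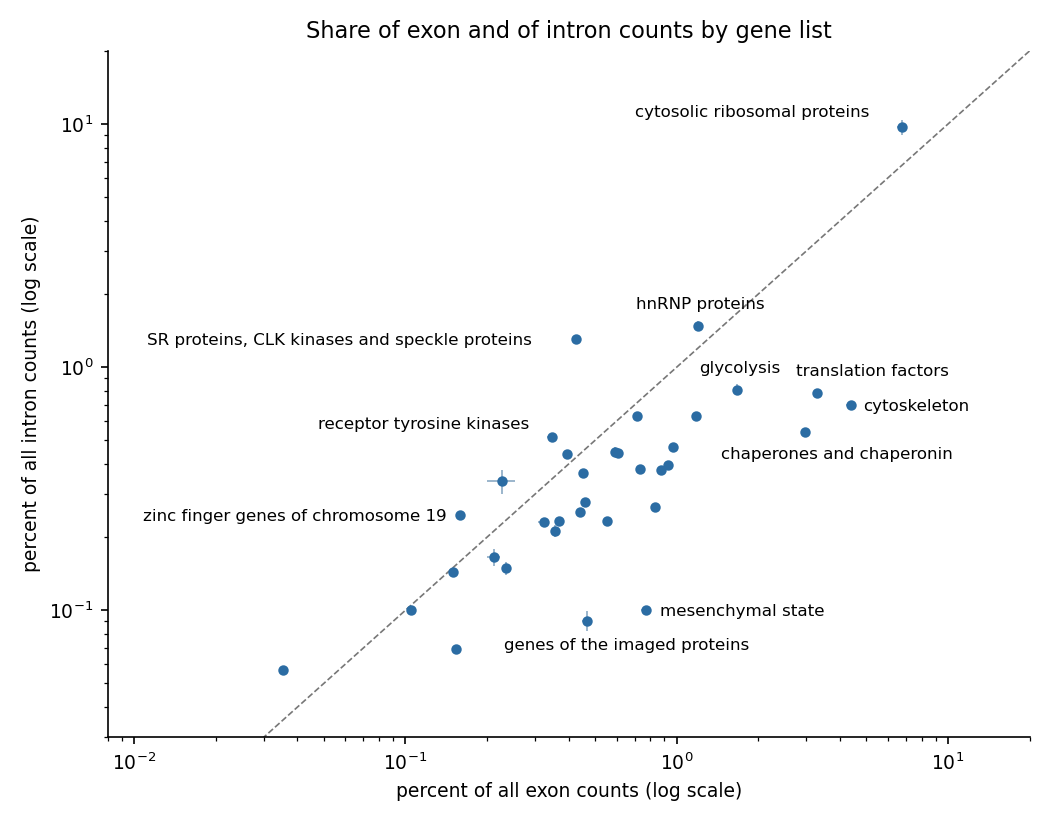
Share of exon counts (horizontal axis, percent, logarithmic) and of intron counts (vertical axis, percent, logarithmic) taken by each gene list, as the mean of the 3 DMSO 24 h samples with SD bars, 1 point per list with at least 3 genes in the comparison. Shares cover all members in the table. Of these, 3 of 34 SR and speckle genes, 8 of 208 zinc finger genes and 1 of 26 hnRNP genes (MATR3) have no exon entry and add intron counts only. MATR3 is among the 10 top intron genes, and the hnRNP list holds 1.20% of exon and 1.48% of intron counts. On the dashed line both shares are equal; cytosolic ribosomal proteins (6.74% of exon and 9.70% of intron counts, but 6.27% and 1.87% without 6 genes), SR proteins and speckle genes and zinc finger genes lie above it, and chaperones, cytoskeleton and translation factors below it.

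Genes of cell division stood moderately above all genes. Of 33 genes of G2/M and mitosis, 9 were high (27.3%) and 1 low (3.03%), beside 11.7% and 16.2% of all genes. Their median was 29.8 ± 2.21, and the proliferation antigen MKI67 led at a ratio of 456 ± 51.5 with 8665, 8549 and 5855 exon counts. The low one was BIRC5, the mitotic inhibitor of apoptosis survivin, with 38, 45 and 29 exon counts. Of 43 replication genes, 10 were high (23.3%) and 2 low (4.65%), with a median of 25.8 ± 0.455. The low ones were PRIM2 and DUT, and the ribonucleotide reductase gene RRM2 had 18510, 21327 and 14736 exon counts. Per length the mitosis and replication medians lay at 0.89 and 1.39 on the log2 scale against the median gene. There 13 of 33 and 14 of 43 genes were high and 3 of each list low, beside 19.8% and 23.5% of all genes. DNA repair and checkpoint genes had a median slightly below that of all genes (11.5 ± 0.559), with 23 of 48 above the median gene. Of the 48, 4 were high (8.33%) and 6 low (12.5%), shares near those of all genes. Per length their median lay at -0.09 on the log2 scale, with 6 high and 12 low. In that list DDB1 had 18514, 19858 and 12874 exon and 101, 84 and 77 intron counts, and the damage kinase ATM had 40, 38 and 34 exon and 68, 68 and 52 intron counts.

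A list of 6 genes covered proteins that the study imaged, without actin and histone H3, which it imaged as well. Of its 5 genes in the comparison, 4 were high and 0 low, beside 11.7% and 16.2% of all genes. NCL, which encodes nucleolin, had a ratio of 237 ± 14.6 with 68987, 77082 and 52849 exon counts, the nucleolar methyltransferase FBL 143 ± 0.750, the mitochondrial import receptor TOMM20 159 ± 29.7 and the nucleolar chaperone NPM1 67.6 ± 11.6. CENPA, the centromeric histone, was neither (38.3 ± 8.94). SRSF2, which encodes the speckle protein SC35, had no exon entry and 708, 732 and 547 intron counts, so it has no ratio. The wider list of nucleolar and ribosome biogenesis genes had 7 of 30 high and 0 low (median 33.0 ± 2.26).

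Splicing regulators had the lowest median by count of all lists with at least 10 genes. The 29 SR proteins, CLK kinases and speckle proteins had a median ratio of 5.55 ± 0.527 (SD, n = 3). By count 1 was high and 6 were low (20.7%), the latter near the 16.2% of all genes. Per length 2 were high and 18 low, beside 19.8% and 23.5% of all genes. Their median per length was -2.34 on the log2 scale, not the lowest, since interferon-stimulated and antigen presentation genes lay at -2.37. Immediate early genes (-2.20) and zinc finger genes (-2.03) were close to both. All 34 members in the table, of which 3 have no exon entry, took 0.426% ± 0.0108 of exon counts and 1.31% ± 0.0462 of intron counts. SRSF1 (ENSG00000136450, chr17:58000919-58007346, minus strand), an SR protein that promotes exon recognition, had 443, 408 and 284 exon and 2723, 3098 and 2140 intron counts, which is -6.63 on the log2 scale against the median gene (standard error 0.109, adjusted p = 3.0e-23, edgeR). SRSF10 had 691, 791 and 475 exon and 2511, 2598 and 1889 intron counts. The kinase genes CLK4 and CLK2, which phosphorylate SR proteins, and LUC7L2 and LUC7L, U1 snRNP factors, were the other low members. Most members, 22 of 29, were neither high nor low by count, SRSF3 among them with a ratio of 23.7 ± 2.04. PNN, the desmosome- and speckle-associated protein pinin, was high at 388 ± 109 from 12, 13 and 17 intron counts. Several SR genes carry introns that some transcripts keep, and how their exon and intron territories were drawn bears on these values.

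Several RNA-binding and regulatory lists changed side with the scale. The hnRNP genes, which coat nascent RNA, had a median of 21.3 ± 0.798 (5 of 22 high, 2 low), which lay at 0.58 on the log2 scale against the median gene but at -1.36 per length and -0.05 without genes that overlap others on the same strand. Immediate early genes and MYC had 44.5 ± 3.52 (3 of 15 high, 0 low) and turned from 1.69 to -2.20 per length. IER3, ZFP36L2 and TXNIP were its high members, and the growth factor target CCN1 had the most exon counts of that list, with 24125, 25284 and 15804. Mediator and general transcription genes (6 of 39 high, 5 low) turned from 0.74 to -0.41 per length, lysosome and autophagy genes (21.2 ± 0.830, 4 of 32 high, 3 low) from 0.56 to -0.08, and cholesterol synthesis genes (19.7 ± 2.83, 1 of 21 high, 1 low) from 0.40 to -0.35. High hnRNP genes were HNRNPA1, HNRNPA3, HNRNPU, HNRNPUL2 and TARDBP, and low ones HNRNPF and HNRNPR. In the other lists the low genes were MED22, MED25, MED27, MED31 and CCNT2 (transcription), CTSL, ATG12 and GABARAP (lysosome and autophagy, where LAMP1, CTSD, ATP6V1A and GABARAPL2 were high) and FDFT1 (cholesterol, where SQLE was high). Chromatin regulators had 16.4 ± 0.871 (6 of 62 high, 3 low), at 0.29, at 0.59 per length and at -0.04 without overlapping genes. KDM2B, HDAC9 and TET1 were low, and the lowest was TET1, which oxidises methylated cytosine, with 21, 28 and 17 exon and 78, 111 and 52 intron counts.

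Nonsense-mediated decay genes (42.1 ± 3.42, 3 of 19 high, 2 low), integrins and adhesion genes (40.7 ± 2.75, 4 of 14 high, 1 low) and nuclear pore genes (24.9 ± 0.499, 5 of 26 high, 1 low) lay above all genes by count and per length, the last at 17.4 ± 3.17 without overlapping genes. RBM8A, NBAS and PNRC2 were high and UPF3A and SMG6 low in the first, ITGA6, ITGB1, CTNNA1 and CTNND1 were high in the second, and in the third NUP153, NUP155, NUP188, NUP205 and TPR were high and NUP42 low. The integrin ITGA1 was the low one of its list, with 313, 403 and 234 exon and 1797, 2028 and 1272 intron counts, and the gene PELO lies within it. Receptor tyrosine kinases had a median of 20.2 ± 0.988 (2 of 19 high, 2 low) and a larger share of intron counts (0.516% ± 0.0114) than of exon counts (0.346% ± 0.0134). TIE1 led this list with 5155, 5520 and 3683 intron counts and a ratio of 9.09 ± 0.463, whereas PECAM1 had one of 116 ± 6.28 and KDR 73.8 ± 7.03. KDR and EPHB4 were the high receptors, and FGFR1 and FLT1 the low ones.

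Zinc finger genes and stress response genes lay at or below all genes. Of 208 zinc finger genes of chromosome 19, 56 entered the comparison, and 0 were high and 13 low (median 7.12 ± 0.136, at -0.97 on the log2 scale against the median gene, -0.32 with a minimum of 1 count and -2.03 per length). The list's median level was 0.80 FPKM. At a minimum of 10 intron counts, genes with few exon counts cannot be high, so the 0 is no trait of this list. With a minimum of 1 count, 133 members entered. The highest was ZNF787, with 2091, 2168 and 1312 exon counts, and the lowest ZNF726, with 31, 60 and 19. The p53 targets had a median of 12.6 ± 0.737, with 0 of 14 high and 2 low (BAX and TNFRSF10B). BAX, which permeabilises mitochondria, had 108, 129 and 67 exon and 135, 140 and 97 intron counts, and PLK2 was the most abundant of the list at 11253, 12516 and 8215 exon counts. The p53 target gene MDM2 had no exon entry. Interferon-stimulated and antigen presentation genes had 12.2 ± 1.39 (1 of 16 high, 2 low), at -0.38 against the median gene but at 0.86 with a minimum of 1 count and at -2.37 per length, with 1 high and 8 low. B2M, the light chain of MHC class I, was high with 12890, 15177 and 9674 exon counts, and the antiviral sensor genes OAS1 and OAS2 were low, OAS2 with 3931, 3623 and 2327 exon and 3411, 3432 and 2292 intron counts.

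**Figure D4:**
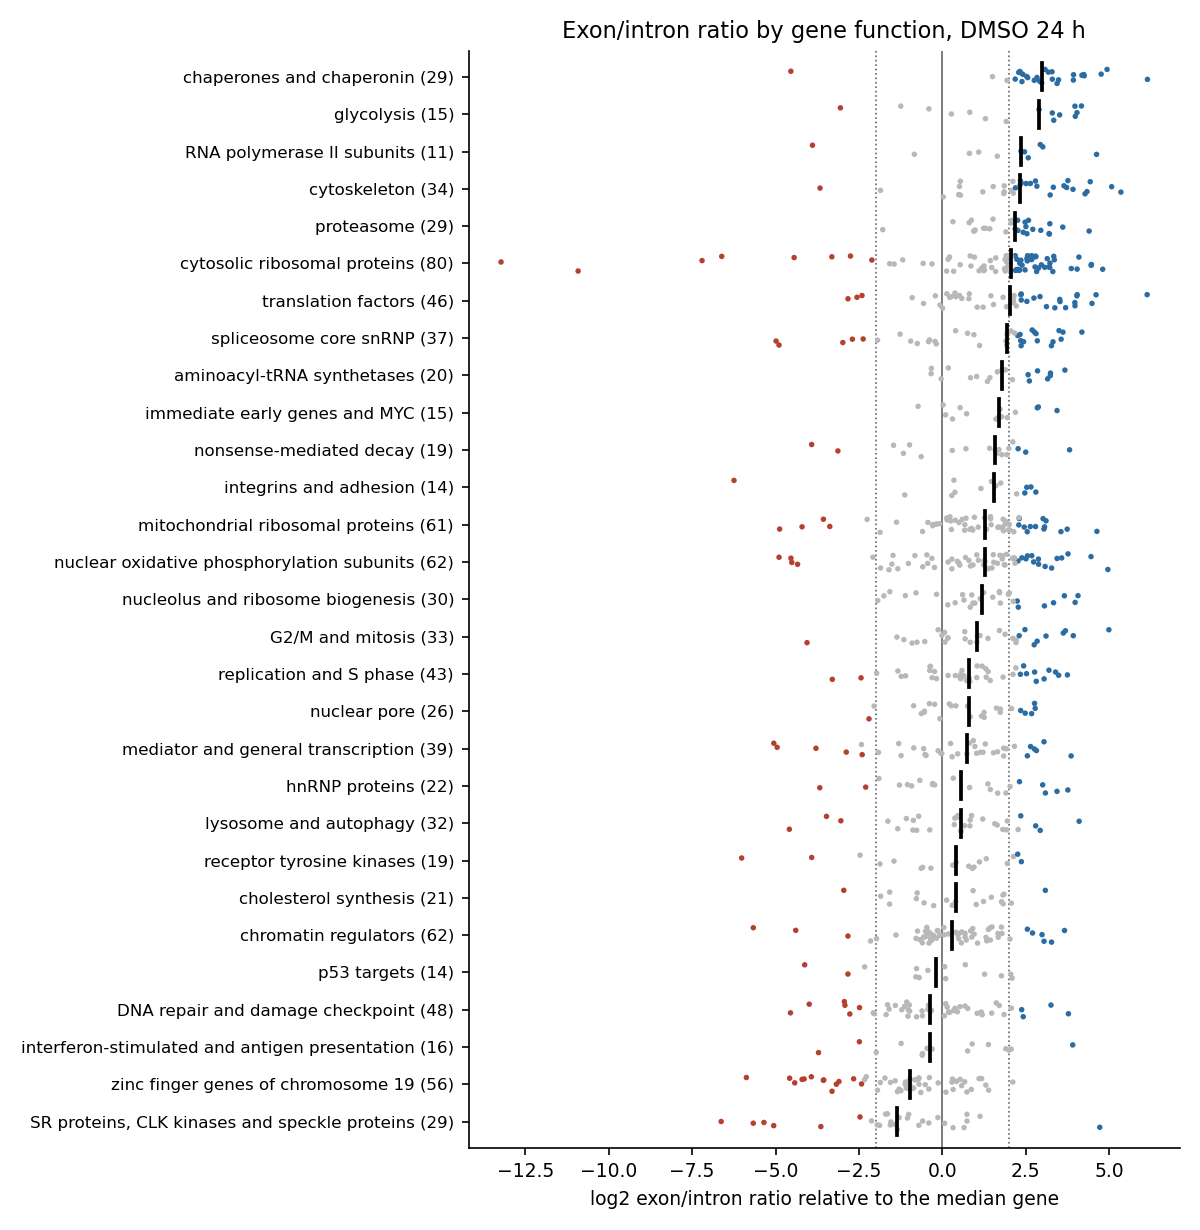
Log2 exon/intron ratio of each gene relative to the median gene (horizontal axis) for the 29 lists with at least 10 genes in the comparison, with the number of genes in parentheses, fitted over the 3 DMSO 24 h samples. Points are genes (blue high, red low, grey neither), black bars are list medians and dotted lines the 4-fold bound. Medians run from 2.98 for chaperones to -1.34 for SR proteins, CLK kinases and speckle proteins; per kb of exon and intron the ribosomal protein, hnRNP, immediate early, mediator, lysosome and cholesterol medians fall below 0.

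Of 41 genes of collagens and matrix, 13 had no count in any library, 1 of them without an exon entry, beside 24.8% of the whole table, and 9 entered the comparison, with 2 high (LAMC1 and NID1) and 3 low (COL7A1, COL8A1 and HSPG2). LAMB1, a laminin chain, had the most exon counts of the list with 36335, 37861 and 25748, and the basement membrane gene NID1 had its highest ratio, 242 ± 24.4 (SD, n = 3). COL1A1 and COL1A2, the chains of collagen I, had 4, 5 and 3 and 0, 1 and 0 exon counts, and COL4A1, COL4A2 and COL3A1 were at 0.

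Length of intron had no steady relation to the ratio across genes, and the relation with exon counts is in part built in. Spearman's rho across the 8109 genes, which are not independent replicates, was 0.00919 with intron length and -0.0521 with exon length. In 10 equal groups by intron length the median ratio ran between 11.7 ± 0.867 and 17.6 ± 0.730 (SD, n = 3), highest in groups 6 to 8 and falling to 11.9 ± 0.548 in that with the longest introns. High genes made up 16.2% of the group with the shortest introns and 6.17% of that with the longest. Across 10 groups by exon counts it rose from 1.42 ± 0.0834 in the lowest to 64.1 ± 3.27 in the highest, where 51.0% of genes were high and 1.36% low. In the lowest group 70.4% were low, and 0% were high because the minimum of 10 intron counts leaves no room for a high ratio among genes with few exon counts. The ratio also contains the exon count, so its rho with exon counts (0.713) and the rise across groups cannot be read as a relation with abundance alone. Exon and intron counts of the same gene, which are separate counts, had a rho of 0.331.

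**Figure D5:**
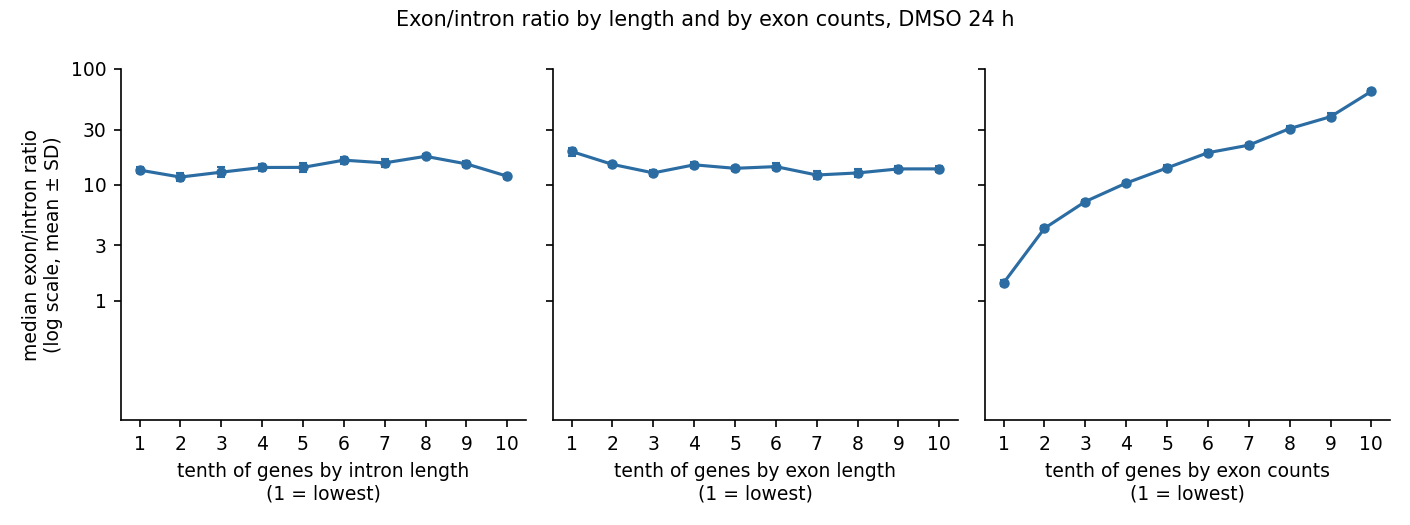
Median exon/intron ratio (vertical axis, logarithmic) in 10 equal groups of the 8109 genes ordered by intron length, exon length or exon counts (horizontal axes, 1 the lowest group), as the mean of the 3 DMSO 24 h samples with SD bars that are often smaller than the points. The median stays between 11.7 and 19.4 by length and rises from 1.42 to 64.1 by exon counts.

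Of the 17508 genes, 4346 (24.8%) had no count on exons or introns in any of the 3 libraries, of which 127 have no exon entry and 4219 have one, and 5518 had at most 2 counts. A gene at 0 is below a floor of 3 counts, which is 0.0407 per 1000000 of the 73745702 exon counts of the 3 libraries, and 0.114, 0.104 and 0.161 per 1000000 in each. Sensory and hair genes were absent as groups: 189 of 193 olfactory receptors and 42 of 42 keratin-associated proteins had an exon entry and were at 0, and most genes of both groups have no intron entry. Of 51 replication-dependent histone genes, whose transcripts end without a poly(A) tail, 10 were at 0 and 49 had no intron entry, and the most abundant, H2BC12, had 909, 877 and 515 exon counts. The table holds 0 genes of the mitochondrial genome. A further 623 genes had exon counts and 0 intron counts, and 926 had intron counts and 0 exon counts. The latter include RPS10-NUDT3, looked up after its values were seen, with 1110, 1166 and 835 intron counts. A gene without an exon entry, such as SON, DUSP6 or MCL1, cannot be called absent, because the table gives no exon value for it.

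The 3 libraries gave most genes similar ratios. The highest ratio of a gene was 1.34-fold its lowest at the median gene and 2.23-fold at the 95th percentile, and 1.25-fold and 1.69-fold for the 4544 genes that reached 50 counts on both parts. The largest of these among the latter genes were 2.71-fold for DHRS4L2, a short-chain dehydrogenase (169, 176 and 78 exon and 72, 89 and 90 intron counts), 2.50-fold for the cytokine signalling inhibitor SOCS2, 2.48-fold for DENND10 and 2.39-fold for the acetoacetyl-CoA synthetase AACS. At the minimum of 10, ABHD17B (10, 23 and 16 intron counts), ABHD2 (10, 20 and 14) and ABRACL (35, 24 and 10) were just inside, and ABHD15 (16, 9 and 9), AKAP11 (14, 9 and 9) and ANKDD1A (27, 23 and 9) just outside. The lowest value was 10 in 148 genes and 9 in 128, so the number of genes compared depends on where the minimum is set.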

How the data were processed

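RNA-seq counts of 3 samples (DMSO, 24 h, replicates 1 to 3) were taken from the deposited table of 17508 genes, in which each sample has an exon and an intron column, and the other 9 samples were left out because they hold other groups. Per the labels, the authors trimmed reads with Trim Galore 0.6.0, checked them with FastQC 0.11.8, aligned them to GRCh38 with HISAT2 2.1.0 and counted fragments with HTSeq-count, citing the CRIES procedure, on separate exon and intron annotations from Ensembl release 98, in the mode intersection-strict for exons and union for introns. The deposited values are raw counts, whole numbers that were used as they are. The library kit is directional, but the strand option of the counting is not given in the sources used here. The libraries held 28106882, 30792139 and 19940352 counts on exons and introns together. A gene at 0 had no count in any library, and the floor given for such genes is set at 3 counts. Both columns of a sample come from 1 library, so exon and intron were paired by library.

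Lengths, positions and overlaps of genes came from GENCODE 44, which matched 17485 genes by identifier and is newer than the annotation the authors counted on, and start sites from RefSeq (GRCh38.p14). Genes that reached 10 counts in all 6 columns were fitted in edgeR 4.0.16 (R 4.3.3) with glmQLFit, with terms for library (the block) and for exon against intron, and offsets that centred each library on its median gene. Each gene was tested with glmTreat against a 4-fold bound, and p-values were adjusted by Benjamini-Hochberg over the genes fitted, with calls at an adjusted p under 0.05. The common dispersion was 0.00451, with 2 residual and 22.1 prior degrees of freedom. Shares of counts have 95% Wilson intervals. Levels are exon counts per kb of the union of annotated exons and per 1000000 exon counts of the library (FPKM). Other values are means with SD over the 3 libraries, and 41 gene lists are described by counts and medians. The members and lists were chosen with earlier results of these data known.

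Genes are named by this rule: the 10 with the most exon counts, the most intron counts and the highest level; the 5 highest and 5 lowest called ratios with a mean of at least 50 intron or exon counts; 3 on each side of the minimum of 10; the 5 with the largest fold between libraries among those with at least 50 counts; the most abundant member and those with the highest and lowest ratio of each list; and members of marker lists. Not every gene that the rule gives is printed. The scripts were tested on simulated data. Alternatives tried were DESeq2 1.42.0, limma 3.58.1, other minimum counts, bounds and scaling, no block, leaving out each library, thinning to the smallest library, ratios per length, and leaving out the top intron genes. Those chosen after seeing the data left out genes that overlap others on the same strand, or also those with under 1 kb of intron, kept genes with both entries, used the canonical transcript's length, or split the ribosomal protein list by its members among the top intron genes. Python 3.11.15 with numpy 2.4.6, pandas 2.3.3, scipy 1.17.1 and matplotlib 3.10.9 made the other values and the plots.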

Additional observations from a re-analysis of the deposited data

How the results depend on the processing

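The number of genes with a high ratio (952) was 799 with DESeq2, 822 with limma, 914 centred on totals, 1070 with TMM and 1258 with a minimum of 1 count, and 905 to 971 without 1 library. It moved to 552 with a minimum of 50 counts, 2244 with a 2-fold bound and 1593 per length, where 635 of 941 high genes kept their call and 10 turned low. The number with a low ratio (1311) was 1122, 1194, 1334, 1225 and 1652 under the same first 5 settings and 1261 to 1354 without 1 library. It moved to 661 with a minimum of 50 and 2414 with a 2-fold bound. Per length it was 1897, where 996 of 1300 low genes kept their call and 0 turned high. A smaller bound is passed by more genes. A higher minimum tests fewer genes, but calls also changed among genes tested both times. At a minimum of 50, 661 of the 891 low genes still tested kept their call. There 552 genes were high, where 339 of the main high genes were tested, and the median ratio was 10.2. For these changed calls and for the ratio per length the cause was not tested. Without the replicate block 952 and 1317 genes were called.

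The median ratio (14.1) was 14.7 with a minimum of 1, 13.8 thinned and 13.6 to 14.7 without 1 library, and moved to 10.2 with a minimum of 50. The span (132) moved to 210.3 with a minimum of 1, 86.6 with one of 50, 123 after thinning, 657 per length and 139 without replicate 3, and ran from 132 to 139 without 1 library; the cause was not tested. Introns took 5.84% of counts without the 10 top intron genes, in place of 6.49%, since those counts were left out, and 6.40% to 6.60% without 1 library. Genes with no count (4346) numbered 4650 to 4720 without 1 library and 4544 after thinning. Of the 29 list medians, 24 lay above all genes, 18 per length and 25 with a minimum of 1. Recomputed per length, with a minimum of 1 and without overlapping genes, 9 of 87 list medians changed side.

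Further settings were chosen after seeing the data. Without genes that overlap others on the same strand, 573 genes were high and 794 low of 5183, the median ratio was 15.1, the span 117 and 22 list medians lay above all genes; with introns of at least 1 kb as well, 536 were high and 751 low. Fewer genes were tested in both, but calls also changed among genes tested both times. Without overlapping genes, 573 of the 634 high genes still tested kept their call. There 794 genes were low, where 751 of the main low genes were tested. For these changed calls, the median and the span the cause was not tested. Cytosolic ribosomal proteins without 6 members took 1.87% of intron counts in place of 9.70%, since those counts were left out. Genes with both entries had 6.25% of counts on introns, because genes without an exon entry were left out. The mean of the libraries' rho with intron length went from 0.00995 to 0.0411, and with exon length from -0.0517 to -0.0568, without overlapping genes, and the latter turned to 0.0773 with the canonical transcript's length; the cause was not tested.

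Depth limits genes near 10 counts most, and intron counts more than exon counts. An alternative with the exon bases that are in every transcript was not usable, since 9079 genes have 0 such bases. Pseudogenes, overlapping genes and the annotation's version bear on single genes, and the 3 libraries cannot show variation between cultures if they are technical replicates.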

Other observations

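More genes known from endothelium were looked up after the values were seen. CD93, a receptor of endothelial and myeloid cells, had 41701, 46624 and 31992 exon and 122, 103 and 72 intron counts, and a high ratio. EGFL7, a secreted endothelial factor, had 21931, 23192 and 12950 exon and 7134, 7691 and 5009 intron counts, and a low ratio. CD93 and EGFL7 thus lay on opposite sides of the median gene.

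Neighbours of the genes with many intron counts were looked up in the same way. NME1 had 54, 47 and 27 exon counts and 0 intron counts, and NME2 had no exon entry and 0 intron counts, although the readthrough gene NME1-NME2 had 25123, 28014 and 16770 intron counts. RPL36A-HNRNPH2 had 1740, 2147 and 1214 exon and 383, 343 and 264 intron counts.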
